A study of Helix lucorum with 35 samples.

Results

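The contigs described here were higher in the left than in the right parietal ganglion (PaG) of the snail Helix lucorum in the first experiment (E1) and showed no such difference, on average, in the second experiment (E2). A contig is a stretch of transcript sequence put together from the reads, and the files name contigs by number only. The contigs were chosen by their own measured values. For each snail with a library from both sides, the log2 ratio of left to right was taken from CPM (counts per 1000000 counts of the library), with 0.5 CPM added to each side. A contig was kept when all 6 E1 snails had a ratio above 0, the mean of the 6 was at least 1.5, and the mean over the 5 E2 snails with both libraries lay between -0.5 and 0.5. Of 693041 contigs, 66 met the rule, so the limit of 150 contigs that the rule allowed was not reached. The E1 ratios and the E2 ratios are therefore given as descriptions, with no test.

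RNA-Seq was done on 24 libraries from 13 adult H. lucorum. Snails 1 to 6 gave the 12 libraries of E1, and snails 7 to 13 gave the 12 of E2. All nervous systems were first kept for 24 h at 4 °C in saline with raised calcium and magnesium. The control side of each snail was frozen before any drug was added, and the activated side received 20 µM anisomycin, a blocker of protein synthesis, for 10 min and then 100 µM caffeine and 5 µM serotonin (5-HT) together with anisomycin for 20 to 25 min. In E1 the whole left or right PaG was taken, and by the methods the visceral ganglion stayed attached to the left one, although a figure legend of the study states that this ganglion was left out. In E2 the tissue was restricted to the medial portion, which holds the giant neurons Pa2 and Pa3. In E1 the activated side was the left one in snails 1 to 3 and the right one in snails 4 to 6, so activation and side were balanced. In E2 it was the left one in 4 of the 5 snails with both libraries, and snails 7 and 12 gave 1 library each. The PaG and the visceral ganglion are parts of the nerve ring around the gullet of land snails. The visceral ganglion lies between the PaG and sends nerves to the inner organs, and the left and right PaG differ in the neurons they hold, since the body of a gastropod is twisted during development. The label of the tissue was not checked against marker genes, because the files pair no contig with a gene.

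The total expected count per library, which is the sum over all contigs, ranged from 3513906 to 30664588 in the E1 left libraries, from 4704660 to 35225724 in the E1 right libraries, and from 926483 to 29646674 in E2. The smallest library was the right activated one of snail 9. Its scaling factor from the trimmed mean of M values (TMM) was 1.99, so CPM values from the library total are about that many times those after TMM scaling. Ratios were taken per snail, whereas levels and tests took libraries as units, with a snail term only where stated. Several contigs may be pieces of 1 transcript, so the 66 contigs are not 66 separate observations.

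The rule left a narrow set. All 6 ratios were above 0 in 4359 contigs, and 243 of these also had a mean of at least 1.5. Of the 243, 168 had a mean E2 ratio above 0.5, 9 had one below -0.5, and 66 lay between these bounds. Just inside the limits were contig 13701 with a mean E1 ratio of 1.52 and contig 637110 with 1.53, contig 1698674 with a mean E2 ratio of -0.50, and contig 288552 with 0.49. Just outside were contig 952440 with a mean E1 ratio of 1.49, contig 1275063 with a mean E2 ratio of 0.61, and contig 1762484 with -0.51. The same rule with all signs turned found 96 contigs on the right side, from 206 that met its E1 conditions.

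A mean E2 ratio near 0 was reached in different ways. The rule's added 0.5 CPM pulls the ratio to 0 when both sides are almost without reads, and 33 of the 66 contigs (50.0%) had a mean below 0.5 CPM over the 12 E2 libraries. Another 17 had a mean of 0.5 to below 2 CPM, and 16 (24.2%) had at least 2 CPM. In the 168 contigs with the same E1 difference but a mean E2 ratio above 0.5, only 2 were below 0.5 CPM, and the median of their mean E2 levels was 33.2 CPM against 0.45 CPM in the 66. For comparison, 74.3% of the 387774 contigs tested in E1 were below 0.5 CPM in E2 and 8.83% were at 2 CPM or more. The contigs of the mirrored right-side set divided in much the same way, with 52.1% below 0.5 CPM and 21.9% at 2 CPM or more. A comparison of the E2 sides therefore rests mainly on the 16 contigs with at least 2 CPM.

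**Figure D1:**
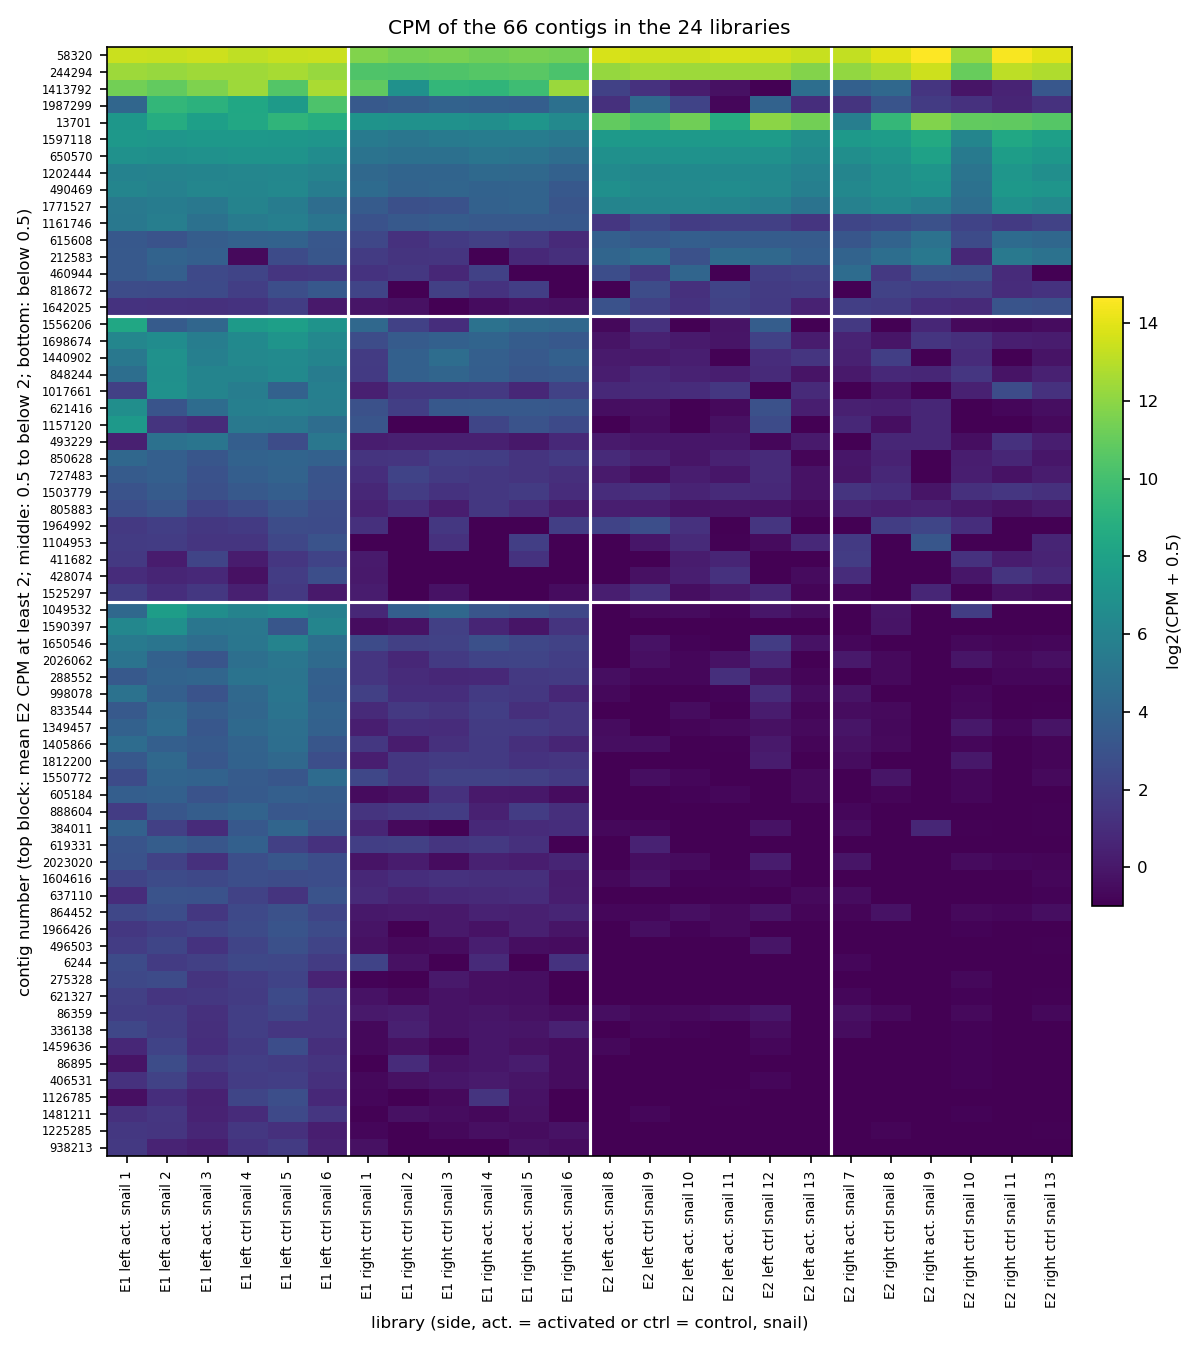
Heatmap of log2(CPM + 0.5) of the 66 contigs (rows, by contig number) in the 24 libraries (columns, grouped as E1 left, E1 right, E2 left, and E2 right), with white lines between the groups of libraries and between the contigs with mean E2 CPM of at least 2 (top, 16 contigs), 0.5 to below 2 (middle, 17), and below 0.5 (bottom, 33). The lower blocks are dark in the E2 libraries, as the order of the rows by E2 level sets. In the top block, contig 58320 and contig 244294 are about as bright in E2 as in E1 left. Contig 1413792 and contig 1987299, also abundant in E1 left, are far darker in E2.

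Over the 66 contigs, the mean E1 ratio ranged from 1.52 to 4.94, with a median of 2.01, which is 4.04-fold. The left levels covered a wide range, from 1.64 to 10585 CPM as means of 6 libraries, with a median over contigs of 11.0 CPM against 1.89 CPM on the right. On the left, 32 contigs were below 10 CPM and 8 were at 100 CPM or more. In 45 of the 66 contigs the lowest left library was above the highest right library, and the other 21 overlapped. The choice of contigs fixes these directions and favours sides that do not overlap, so the 45 are a description only. The share over all contigs is not given.

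The summed CPM of the 66 contigs was 20002 to 25178 in the E1 left libraries, 4514 to 9236 in the E1 right libraries, and 9113 to 42293 in E2. Most of this sum came from a few abundant contigs. For the 50 contigs with a mean E2 level under 2 CPM, the sums were 674 to 1224 CPM (median 1097) in E1 left, 97.2 to 156 CPM (median 125) in E1 right, and 9.99 to 49.7 CPM (median 17.2) in E2. The 50 contigs were taken for their low E2 level and E1 left is above E1 right by the rule, so the order of these sums was set by the choice. As the samples are bulk tissue, fewer cells of a type and less RNA per cell cannot be told apart.

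Contig 1590397 had the largest mean ratio, 4.94 ± 1.67 (SD, n = 6 snails), or 30.8-fold. Its left levels were 76.3, 114, 34.6, 36.8, 8.63, and 70.0 CPM in snails 1 to 6, and its right levels were between 0.21 and 3.45 CPM (median 0.72). Every left library was above every right library. In E2 it had reads in only 1 of 12 libraries, the right control of snail 8, at 0.37 CPM. Contig 605184 was the one most like it over the 12 E1 libraries (Pearson r = 0.93 of log2(CPM + 0.5), n = 12, a value that the shared side difference itself raises). Its left levels lay between 7.61 and 13.5 CPM (median 11.8) and its right levels between 0.20 and 1.83 CPM (median 0.40). The highest right value came from snail 3, which also had the highest right value of contig 1590397. In E2, contig 605184 stayed at or below 0.15 CPM in all 12 libraries.

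Among the 8 contigs with the largest ratios, 3 had far less on the left in snail 1 than in any other snail. Snail 1 was also the lowest on the left for contig 1049532 and contig 288552, but by less. Contig 1987299 had 17.2 CPM in the left library of snail 1 and 184 to 1238 CPM in the other 5 left libraries, whereas its right levels were 9.77 to 27.0 CPM in all 6 snails. Its ratio was thus 0.79 in snail 1 and 3.86 to 5.77 in the others. Contig 493229 had 0.79 CPM on the left in snail 1, against 5.69 to 37.4 CPM in the others and 0.49 to 1.28 CPM on the right, and its ratio in snail 1 was 0.13. Contig 1017661 had 3.42 CPM on the left in snail 1 and 13.8 to 122 CPM in the others, with 0.79 to 3.70 CPM on the right. In snail 1 its sides were still apart, at a ratio of 1.61 against 3.12 to 5.43 in the others. In all 3, the left library of snail 1 lay at under 0.2 of the median of the other 5, as it did in 5 of the 66 contigs. Contig 1157120, named after its values were seen, went the other way, with 176 CPM on the left in snail 1 and 1.42 to 40.0 CPM in the others. The left library of snail 1 was the activated one and had a total of 7585969, which is within the range of the other left libraries.

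Snail 1 also set the size of the set. Without it, the rule found 118 contigs, 65 of them among the 66. Leaving out another snail of E1 gave 72 to 89 contigs, and leaving out a snail of E2 gave 59 to 63. Over the 66 contigs, the lowest of the 6 ratios was in snail 3 for 27 contigs and in snail 1 for 17, and the highest was in snail 5 for 19.

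**Figure D2:**
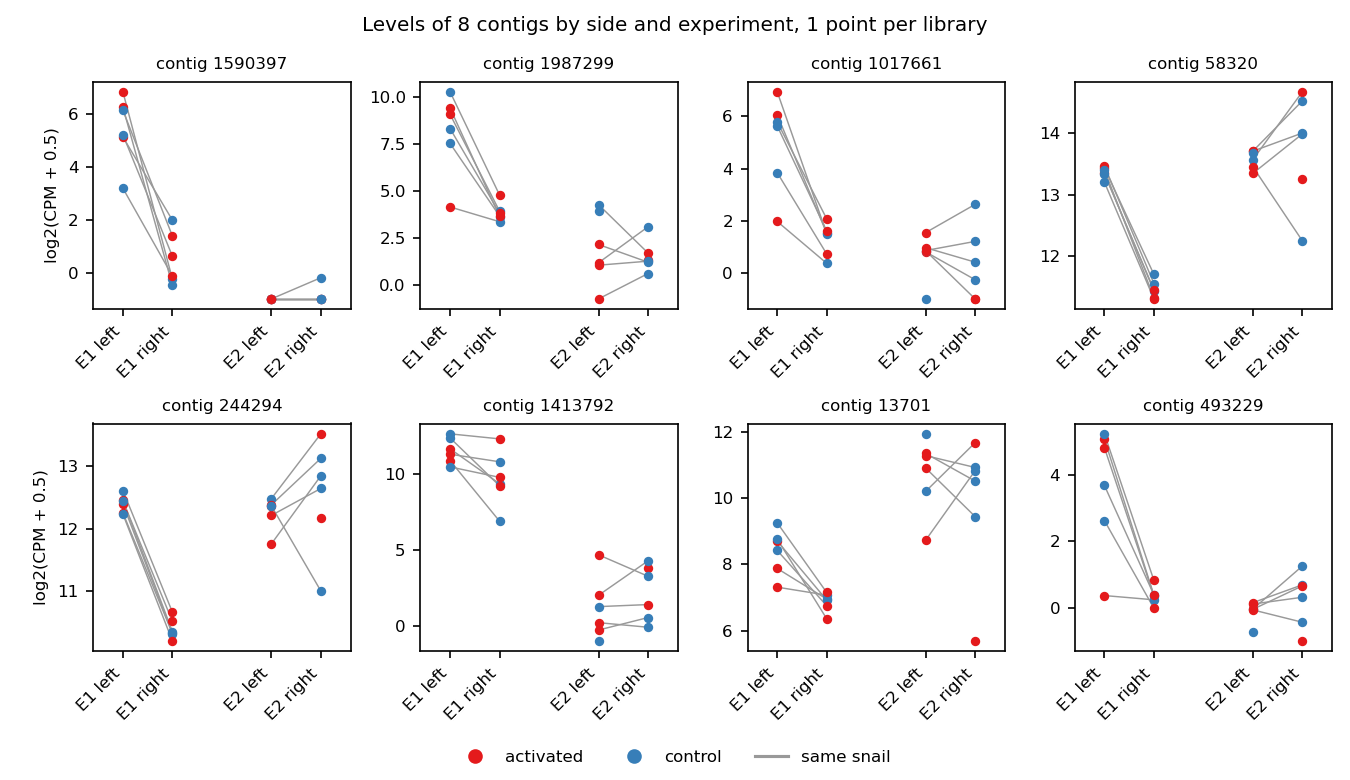
Levels of 8 contigs as log2(CPM + 0.5) in each library, by side and experiment, with a point per library coloured by condition and a grey line joining the sides of a snail; the vertical axes differ between panels. Contig 1987299, contig 1017661, and contig 493229 each show 1 E1 left library, that of snail 1, at or near the levels of the right libraries, and contig 1413792 shows E1 libraries of both sides far above all E2 libraries.

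The remaining contigs with large ratios were low in E2 and steadier between snails. Contig 1049532 had 19.0 to 213 CPM (median 74.9) on the left and 1.18 to 18.1 CPM (median 7.46) on the right, with a mean ratio of 3.32 ± 0.54 (SD, n = 6). Both sides of snail 1 were the lowest of their side, so its ratio there (3.54) was close to the mean. Contig 288552 had 9.89 to 32.2 CPM (median 16.4) on the left and 1.14 to 2.76 CPM (median 1.81) on the right. Contig 1349457 had 9.22 to 25.9 CPM (median 17.0) on the left and 0.76 to 2.84 CPM (median 1.83) on the right. In none of these 3 did the E1 sides overlap. In E2 the highest level was 3.13 CPM for contig 1049532 (right control of snail 10), 1.65 CPM for contig 288552 (left activated of snail 11), and 0.49 CPM for contig 1349457.

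The spread of the ratio over the 6 snails divided the contigs as well. The SD was under 0.2 in 5 contigs, at least 1 in 13, and had a median of 0.62 over the 66. The largest SD was that of contig 1987299 (1.84), followed by contig 818672 (1.75), contig 493229 (1.74), and contig 1590397 (1.67). Contig 818672 was even on the left, at 3.30 to 9.59 CPM, and without reads on the right in snails 2 and 6, where its ratios were 3.56 and 4.33. In the other 4 snails its right levels were 1.96 to 4.23 CPM and its ratios 0.38 to 0.83.

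**Figure D3:**
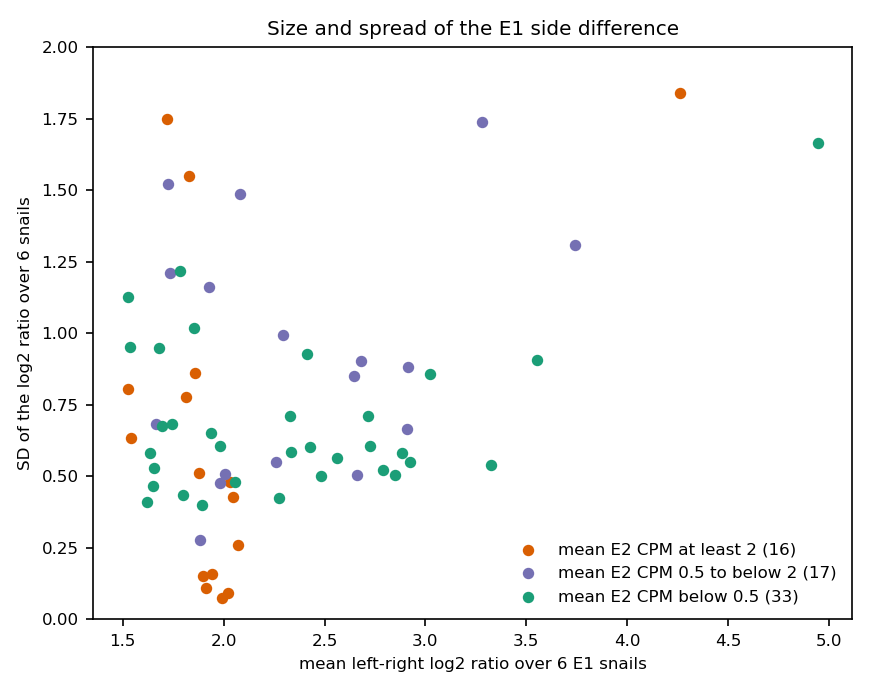
Mean E1 left-right log2 ratio of each contig (horizontal) against its SD over the 6 snails (vertical), coloured by the mean E2 CPM of the contig. The 5 contigs with an SD under 0.2 sit together near a mean ratio of 2 and all belong to those with mean E2 CPM of at least 2.

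The contigs with the 4 smallest SDs included the 2 most abundant of the 66. The contigs at ranks 3 to 5 by mean E1 left level were not among the steady ones, with SDs of 1.55 for contig 1413792, 1.84 for contig 1987299, and 0.80 for contig 13701. Contig 58320 had 11088, 10428, 11348, 9431, 10376, and 10837 CPM on the left in snails 1 to 6 and 3314, 2757, 2989, 2510, 2786, and 2548 CPM on the right, a mean ratio of 1.91 ± 0.11 (SD, n = 6). It ranked 2 by mean level among all 693041 contigs in E1 left, 20 in E1 right, and 5 in E2. Contig 244294 had 4812 to 6245 CPM (median 5477) on the left and 1186 to 1630 CPM (median 1303) on the right, and its ratio, 1.99 ± 0.08, had the smallest SD of all 66. Contig 1597118 had 147 to 167 CPM (median 158) on the left and 34.4 to 47.5 CPM (median 42.6) on the right, with a ratio of 1.90 ± 0.15. Contig 650570 had 96.4 to 131 CPM (median 123) on the left and 24.2 to 33.7 CPM (median 29.1) on the right, with a ratio of 2.02 ± 0.09. The sides of all 4 were far apart against the spread between snails, which the choice of contigs favours.

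These contigs kept nearly fixed proportions to each other. Over all 24 libraries, the SD of the log2 ratio to contig 58320 was 0.23 for contig 244294, 0.19 for contig 1597118, 0.20 for contig 650570, 0.16 for contig 1202444, and 0.28 for contig 490469. The lowest value among the other 60 contigs was 0.32 for contig 615608, close to the limit of 0.3 used to set these contigs apart. Contig 1771527 followed at 0.49. Contig 244294 was at 45.8% ± 7.4 (SD, n = 24 libraries) of the CPM of contig 58320, contig 1597118 at 1.45% ± 0.18, and contig 650570 at 1.01% ± 0.15. The group of 6 was put together after its values were seen and has no test. Whether these contigs come from 1 transcript could not be examined, as no sequences were used here. None of the 5 contigs grouped with contig 58320 had whole expected counts throughout. RSEM gives parts of a read to a contig when the read also matches another, so the levels of abundant contigs may hold shared reads.

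In E2 the same contigs were not low, and their sides crossed. The levels of contig 58320 in the left libraries of snails 8 to 13 were 13405, 12175, 11237, 13412, 13095, and 10416 CPM, within or above its E1 left levels. On the right, snails 7 to 11 and 13 gave 9832, 16463, 26265, 4853, 23695, and 16294 CPM. The right levels thus ran from under the lowest to well over the highest left level. Its ratio was -0.30, -1.11, 1.21, -0.82, and -0.65 in snails 8, 9, 10, 11, and 13, so the mean of -0.33 covers 4 snails with more on the right and 1 with more on the left. The 1.21 of snail 10 goes with the lowest E2 level on its right side, 4853 CPM, and the -1.11 of snail 9 with the highest, 26265 CPM, from the smallest library. After TMM scaling the right library of snail 9 had 13194 CPM and that of snail 11 had 24010 CPM, so the latter was then the highest. Contigs 244294, 1597118, and 650570 had the same signs in the same snails.

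Contig 13701 lay at the edge of the rule and was far higher in E2 than in E1. It had 159 to 611 CPM (median 380) on the left and 81.4 to 142 CPM (median 122) on the right in E1. In E2 it had 51.0 CPM in the right activated library of snail 7 and 425 to 3959 CPM in the other 11 libraries, with a median of 1882 CPM over all 12. It ranked 252 by mean level in E1 left and 52 in E2. Its E2 ratio was above 0 in snails 8, 10, and 13 and below 0 in snails 9 and 11.

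Contig 1413792 was the reverse, being abundant on both sides in E1 and scarce in E2. It had 1433 to 6501 CPM (median 2919) on the left and 119 to 5168 CPM (median 775) on the right, and the sides overlapped. In snail 6 it had 6501 CPM on the left and 5168 CPM on the right, a ratio of 0.33, whereas in snail 2 it had 1909 and 119 CPM, a ratio of 4.00. In E2 its levels were 0 to 25.2 CPM, with a median of 2.02 CPM, so every E1 library of either side was above every E2 library. It ranked 13 by mean level in E1 left, 40 in E1 right, and 11705 in E2.

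The medial parts taken in E2 and the right PaG of E1 both lacked the visceral ganglion by the methods, so their levels were compared across experiments. The comparison used edgeR's quasi-likelihood test with the condition as a term, at an adjusted p below 0.05 and a change above 2-fold. All 66 contigs were tested and 38 were called. Lower in E2 were 27 contigs, or 27 of 66 beside 1.96% of the 398557 contigs tested. Higher in E2 were 11, beside 0.584% of all contigs. Both counts touch the rule: it favours contigs that are low in E1 right, which raises calls in the direction of E2, and its bounds on the E2 ratio admit contigs that are nearly absent from E2, which raises calls in the other. The counts are therefore a description, and no p-values are given for single contigs. The experiments also differed in snails, tissue, and libraries, which cannot be told apart, and 5 snails gave both sides of E2, so the 12 E2 libraries are not all independent and the p-values behind the calls are too small.

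In 14 of the 27 contigs called lower, all 12 E2 libraries were below all 6 E1 right libraries. Among the 11 called higher, 9 had all E2 libraries above all E1 right libraries. The calls came from these same libraries and favour such separation, so it adds no support to them. The share over all contigs is not given. All 11 had a mean E2 level above their mean E1 left level, and 10 still did without the right library of snail 9, the smallest one. The exception was contig 244294, with a mean of 5894 CPM over the 12 E2 libraries and 5368 CPM without that library, against 5414 CPM in E1 left.

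For contig 1413792, the fitted log2 fold change of E2 against E1 right was -7.34, with means of 6.42 ± 8.51 CPM (SD, n = 12) in E2 and 1542 ± 1861 CPM (n = 6) in E1 right. Contig 1590397 had reads in 1 E2 library, so its fitted change of -4.79 depends on the prior count. Contig 1049532 had a fitted change of -4.16. In the direction of E2, the fitted changes were 4.41 for contig 13701, 4.09 for contig 212583, and 2.71 for contig 58320. The abundant contigs in fixed proportion to contig 58320 gave similar changes, such as 2.47 for contig 244294 and 2.61 for contig 1597118. They count as 1 pattern. Contig 615608 (2.66), whose proportion to contig 58320 was almost as fixed, was also called higher. Of the contigs with the largest E1 ratios, contig 1987299 (-1.56), contig 1017661 (-0.04), and contig 493229 (0.05) were not called.

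**Figure D4:**
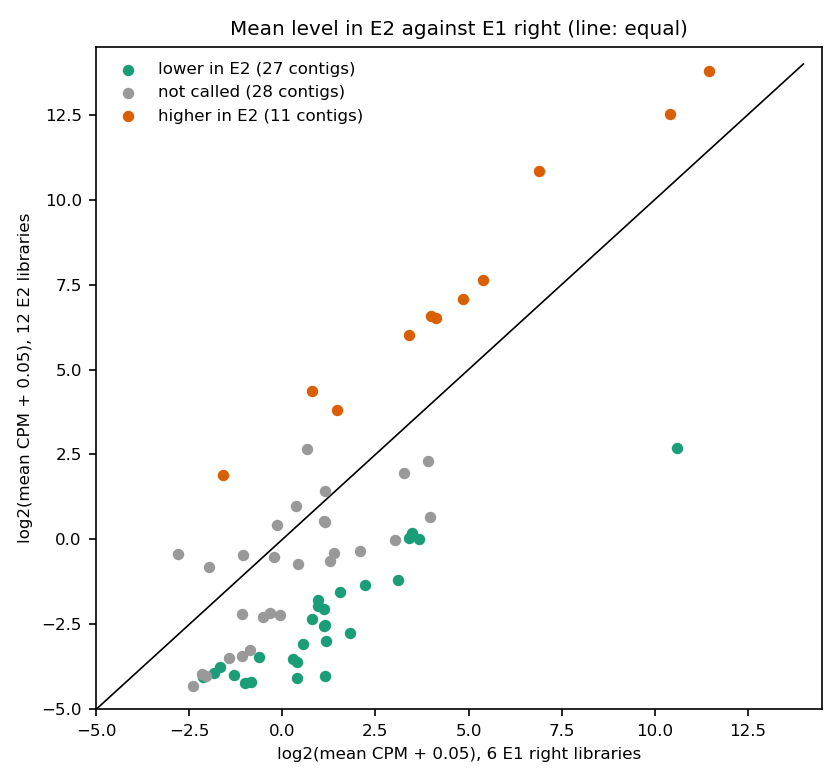
Mean CPM of each contig in the 6 E1 right libraries (horizontal) and in the 12 E2 libraries (vertical), both as log2(mean CPM + 0.05), coloured by the call of the quasi-likelihood test, with the line of equal levels. The 11 contigs called higher lie above the line from low to high levels. Among the 27 called lower, contig 1413792 is the isolated point to the right.

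The calls depended on the libraries used. With the E2 right libraries alone, which hold 1 library per snail, 16 contigs were called lower and 11 higher. Over all 347179 contigs tested there, 2741 were called lower and 475 higher. With the control libraries alone, 61 of the 66 were tested. Of these, 3 were called lower and 5 higher, beside 1293 and 219 of 316947 contigs. A filter of at least 1 CPM in at least 6 libraries kept 35 of the 66. It gave 12 calls lower and 11 higher, beside 2391 and 2155 of 79028 contigs. Of the 38 contigs, 8 were called in every alternative that gave a value for them.

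The rule did not use the libraries of snails 7 and 12, which had no partner. For a look at them, the contigs were grouped by their mean over the other 10 E2 libraries, which put 36 of the 66 below 0.5 CPM, 13 at 0.5 to below 2 CPM, and 17 at 2 CPM or more. Of the 36, 4 reached 0.5 CPM in the right activated library of snail 7 and 10 did in the left control library of snail 12, with 1 and 4 of them at 2 CPM or more. Of the 17, 15 and 16 reached 2 CPM in these libraries. The summed level of the 49 contigs under 2 CPM was 9.99 to 19.6 CPM in the 10 libraries, 22.0 CPM in that of snail 7, and 47.6 CPM in that of snail 12. The left control library of snail 12 was thus above all others. In that library contig 1556206 had 12.1 CPM and contig 1157120 had 5.58 CPM, both named after their values were seen.

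A contig without any E2 read was found once. Contig 938213 had 0.67 to 2.87 CPM on the left and 0 to 0.31 CPM on the right in E1, and no read in the 12 E2 libraries. A floor of 3 counts pooled over those libraries is 0.018 CPM, and the contig's mean E1 left level was 92.4 times that floor. The mean weighs libraries equally whereas the floor pools them, so this value is not a lower bound on the fold difference. The floor covers counting error only.

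The rule did not pick contigs by activation in E1, where each condition held 3 left and 3 right libraries. It did require a ratio above 0 in every snail, whichever side was activated. A contig whose activation change outweighed its side difference in a snail could thus be left out. The choice therefore limits the activation changes that the 66 contigs can show, and the counts are read with that limit. No contig of the 66 was called by edgeR's exact test at an adjusted p below 0.05 and a change above 2-fold, beside 0.0861% of 387774 contigs. None of the 66 reached an unadjusted p below 0.05 in this test, which 2.55% of all contigs did. The log2 fold changes ran from -1.15 to 1.15, with a median of -0.06 against 0.01 over all contigs, and 28 of the 66 were above 0. This test has no term for the side, so the left-right difference of these contigs adds to their spread, and a p that misses the threshold does not show that they did not change.

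In the contigs with the smallest p of the exact test, activated and control values overlapped over the 12 libraries. Contig 460944 was higher after activation by 1.15 on the log2 scale (exact test, p = 0.211, adjusted p = 1). Its left levels were 5.02 to 12.9 CPM in the 3 activated libraries and 2.13 to 4.17 CPM in the 3 control libraries, whereas on the right they were 0 to 3.61 and 1.14 to 2.36 CPM. The conditions were apart on the left, where activated and control libraries came from different snails, and overlapped on the right. Contig 212583 had a change of 1.13 (exact test, p = 0.247), with 0.16 CPM in the left control library of snail 4 and 5.49 to 15.7 CPM in the other 5 left libraries. Contig 1590397 had a change of 1.03 (exact test, p = 0.412).

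In the other direction, contig 1126785 had a change of -1.07 (exact test, p = 0.289) at levels of 0.30 to 1.58 CPM in the left activated and 1.26 to 6.33 CPM in the left control libraries. Contig 13701 had -0.52 (exact test, p = 0.344), with 159 to 418 CPM in the left activated and 343 to 611 CPM in the left control libraries, which overlapped. Contig 428074 had -1.15 (exact test, p = 0.364) and was without reads in 5 of the 6 right libraries. None of these 6 differences passed the exact test, which takes no account of the snail or the side.

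A fit with the snail and the side as terms, over contigs with at least 1 CPM in at least 6 libraries, was added after the data were seen. It tested 57 of the 66 contigs and called none, beside 0.0% of 77722 contigs (quasi-likelihood test, 0 calls). In it, 3 of the 57 had an unadjusted p below 0.05, beside 5.34% of all contigs, and the smallest adjusted p was 0.305, for contig 1157120 with a change of 0.93 (edgeR, p = 0.00404). Contig 13701 had a change of -0.55 in this fit (edgeR, p = 0.0301, adjusted p = 0.826) and contig 1590397 one of 0.58 (edgeR, p = 0.422, adjusted p = 1), while contigs 428074 and 1126785 did not pass its filter.

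The same terms were also fitted over all 387774 contigs, where the prior degrees of freedom were infinite, so that a contig's own spread was not used. It called 0 of the 66 at the 2-fold limit, beside 0.721% of all contigs, but 3 of the 66 had an adjusted p below 0.05 with a smaller change. These were contig 1157120 (0.93, edgeR, adjusted p = 0.00609), contig 1413792 (0.52, adjusted p = 0.0146), and contig 13701 (-0.50, adjusted p = 0.0422). The share of all contigs with an adjusted p below 0.05 at such smaller changes is not given, so the 3 are a description. Of the contigs named by the exact test, contig 1590397 had an unadjusted p of 0.00267 (edgeR, adjusted p = 0.22) and contig 428074 one of 0.00294 (edgeR, adjusted p = 0.236). For contig 1413792 the filtered fit gave a change of 0.45 (edgeR, p = 0.432, adjusted p = 1).

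**Figure D5:**
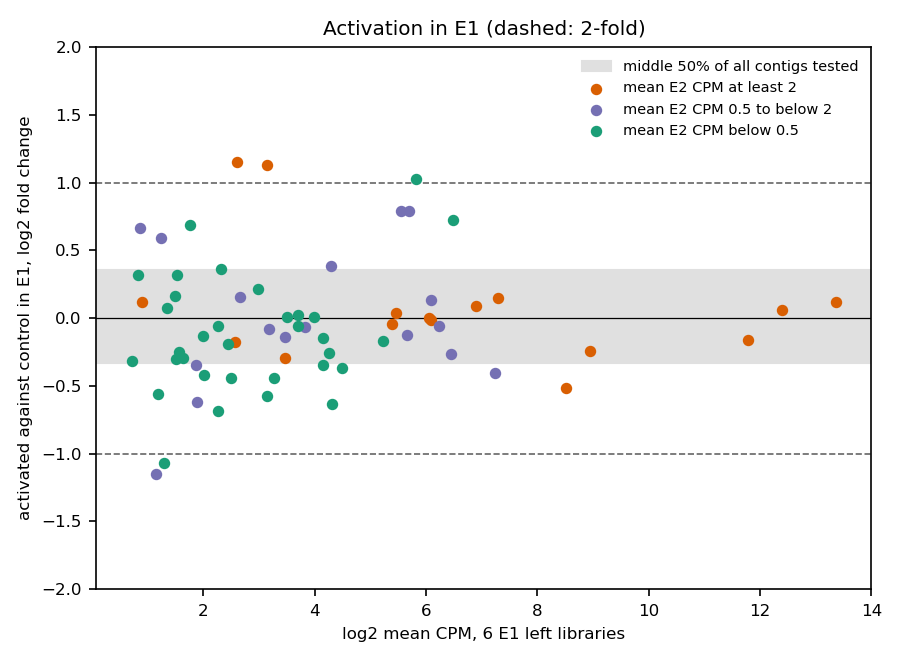
Log2 fold change of activated against control samples in E1 by the exact test (vertical) against the log2 mean CPM in the E1 left libraries (horizontal) for the 66 contigs, coloured by mean E2 CPM, with the middle 50% of all contigs tested in grey and 2-fold changes dashed. A few contigs lie beyond 2-fold, none of them called, and the most abundant ones lie close to 0.

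In E2 the activated side was mostly the left one, so the activation contrast largely repeats the ratio that the rule bounded, and its values are a description. Of the 66 contigs, 47 had enough counts, and none was called by the exact test, beside 0.0353% of 317414 contigs. Of the 47, 40 had a value below 0 and 7 above, with a median of -0.50, beside 54.8% below 0 and a median of -0.06 over all contigs. This leaned on the unpaired left control library of snail 12. Without that library, 34 of 46 were below 0 and 12 above. The median was then -0.19, beside 58.6% below 0 and a median of -0.12 over all contigs. With the snail as a replicate block, 31 of the 47 were below 0, with a median of -0.21 against -0.12 over all contigs. With the block over contigs at 1 CPM or more in 6 libraries, 7 of 19 were below 0, with a median of 0.10 against -0.05. In the exact test, 4 of the 47 had an unadjusted p below 0.05, which 3.27% of all contigs did. Contig 1987299 had the smallest of these (log2 fold change -1.91, exact test, p = 0.0189, adjusted p = 1). Its E2 levels were 18.8 CPM in the left control library of snail 9, 14.9 CPM in that of snail 12, and 0.09 to 8.00 CPM in the other 10. These 2 libraries are the left controls of E2, and both were above all others.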

How the data were processed

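The authors trimmed adapters with cutadapt 1.11, assembled contigs without a genome, mapped the reads with Bowtie 1.0.0, and estimated expected counts per contig with RSEM 1.2.18. The deposited expected counts are neither normalized nor filtered. The study's methods name rRNA depletion and the labels name poly A+ RNA. All 24 columns were matched to samples by title, and samples sequenced for the assembly alone were left out.

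For levels and ratios, counts were divided by the column sum (CPM). For tests, counts were rounded, contigs with a total above 10 were kept, library sizes were scaled by TMM, and p-values were adjusted by the Benjamini-Hochberg method (R 4.3.3, edgeR 4.0.16, limma 3.58.1, DESeq2 1.42.0). The scripts were tested on simulated data. A snail number marks 1 animal, by the study's sample list, so it pairs the left and right libraries. The deviations from group means correlated by 0.711 to 0.87 within snails and by -0.245 to -0.0634 between snails in E1, and by 0.466 to 0.759 and -0.265 to 0.155 in E2. The exact test, which the study used, takes no block for the snail. Fits with it were alternatives, as were the tool, normalization, filter, pseudocount, set of libraries, and leaving out each library.

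Contigs named by rule are those with the 8 largest mean ratios and the 5 highest mean levels in E1 left and in E2. They also include those with the 3 smallest activation p in each direction, and the 4 smallest and 4 largest SD of the ratio. Other contigs in the text were named for lying near a limit or after their values were seen. A rule for contigs at ranks near 150 could not be applied. The members and lists were chosen with earlier results of these data known. No sequences or gene names were used.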

Additional observations from a re-analysis of the deposited data

Results flagged for a closer look

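For 122 groups of 5 or 6 values (the summed levels and those of the contigs named by the rule), Dixon's test was considered. In these, 19 values lay apart from the rest of their group. Groups with all values under 1 were not judged but are among the 122, so the share of 15.6% is not a rate over judged groups. It is not set against the 5% of chance, as the groups overlap and some contigs were named for their large spread. The summed level of the 50 contigs under 2 CPM in E2 was 49.7 CPM in the left control library of snail 12. In E1, the right libraries that stood apart were that of snail 6 for contig 1987299 (27.0 CPM) and contig 1413792 (5168 CPM), that of snail 3 for contig 605184 (1.83 CPM, with the ratio 1.80 in that snail), and that of snail 4 for contig 1126785 (2.07 CPM). The ratio of contig 460944 in snail 4 was 0.19.

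In E2, values above the rest were 8.00 CPM of contig 1987299 in the right library of snail 8, 5.68 CPM of contig 1017661 in the right library of snail 11, 3.13 CPM of contig 1049532 in the right library of snail 10, 1.65 CPM of contig 288552 in the left library of snail 11 (ratio 1.82), and 25.2 CPM of contig 1413792 in the left library of snail 13. Contig 460944 had 17.1 CPM in the left library of snail 10 and 23.2 CPM in the right library of snail 7, both activated. The left library of snail 13 was the lowest for contig 1597118 (108 CPM) and contig 650570 (86.5 CPM). The E2 ratios of snail 10 stood apart for contig 244294 (1.36) and contig 212583 (2.14), with more on the left there and on the right in the other 4 snails.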

How the results depend on the processing

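The 66 contigs became 61 with TMM-scaled CPM (57 shared), 96 and 49 with a pseudocount of 0.25 and 1 (60 and 46 shared), 47 with at least 10 counts in every E1 left library, and 59 to 118 when a snail was left out, with 118 for snail 1. Contigs below 0.5 CPM in E2 numbered 34 after TMM scaling and 33 to 36 without a library. For E2 against E1 right, 38 calls (27 lower, 11 higher) became 23 (12 lower) with at least 1 CPM in 6 libraries, 27 (16 lower) with the E2 right libraries alone, and 8 (3 lower, 5 higher) with the control libraries alone, where fewer samples were used. Of all contigs tested, 5.75%, 0.926%, and 0.477% were called in these settings, in the same order. Without 1 library the calls among the 66 were 33 to 44, with 22 to 33 lower and 11 higher. DESeq2 also gave 38, of which 32 were shared. None of the 38 called contigs, nor of the 6 named for activation in E1, changed direction in an alternative.

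For activation, every alternative and every fit without 1 library called 0 of the 66 contigs in both experiments, with DESeq2 calling 532 and 239 of all contigs. With the snail as a replicate block, the quasi-likelihood test called 0 of the 66 in both experiments, against 1269 of all contigs in E1 and 1461 in E2. With block and side it called 2794 of all contigs and 0 of the 66. In that fit, 7 of the 66 had an unadjusted p below 0.05, beside 15795 of 387774 contigs, against 0 of the 66 in the exact test. An adjusted p below 0.05 with a change under 2-fold was found in 3 of the 66. The prior degrees of freedom of that fit were infinite, so a contig's own spread was not used. With at least 1 CPM in 6 libraries, a fit chosen after seeing the data, they were 3.29, and no contig was called. The depth of the smallest library, 926483, limits what its zeros show.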
